A study of Homo sapiens with 14 samples.

Results

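The genes described here are NFKB1, RELA, NFKBIA, TNFAIP3, CXCL1, CXCL2, BIRC3, IER3 and ICAM1, which encode parts of the NF-κB pathway or are transcribed under its control. They were taken by gene symbol from the table of RPKM values (reads per kilobase of transcript and per 1000000 reads) for all samples, where all 9 were listed among 21574 genes. The study compared cells labelled HepG2, a human liver cancer line, that received a scrambled siRNA (control) with cells that received an siRNA against ADAR1, the enzyme that turns adenosine into inosine in double-stranded RNA (ADAR1 KD). The labels call both transfections stable, and the methods give the length of silencing in hours. PARS-seq cuts refolded poly-A RNA with nuclease S1, which prefers single-stranded bases, or with RNase V1, which prefers paired bases, and Ribo-seq reads the fragments that ribosomes protect. The 14 samples were 8 PARS-seq libraries (2 for each enzyme and condition), 2 RNA-seq libraries (1 for each condition) and 4 Ribo-seq libraries (2 for each condition), which fill 10 columns of the table because each PARS-seq column is the authors' mean of the S1 and V1 libraries of a replicate.

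NF-κB is a family of transcription factors that works as dimers, most often of p50 and p65, which inhibitor proteins of the IκB family hold in the cytoplasm. Signals from cytokine receptors, Toll-like receptors and sensors of double-stranded RNA activate the IKK kinase, IκB is degraded, and the freed dimers switch on genes for chemokines, adhesion molecules and survival factors together with their own inhibitors. In the liver the pathway drives part of the acute-phase response and protects hepatocytes from death signals by TNF.

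NF-κB dimers bind DNA at κB elements, so the promoter stretches with a match to the κB consensus are shown for the genes that have one. Promoter sequences (250 bases before to 50 bases after the start site, RefSeq, build GRCh38.p14) were listed for 8 of the 9 genes, with 2 entries each for NFKB1 and RELA, and IER3 had no entry. A match on either strand was present in 6 of these 8 and absent from the windows of RELA and ICAM1 and from the second of NFKB1, while 11.3% of 35116 promoters held one. A match is a description of letters and not a binding site. The stretches are given on the strand of the gene, with coordinates from an exact match in GRCh37, and capitals mark the letters that match.
NFKB1, chr4:103422457-103422486: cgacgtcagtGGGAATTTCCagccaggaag
NFKBIA, chr14:35874017-35874046: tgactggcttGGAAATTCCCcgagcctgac
TNFAIP3, chr6:138188319-138188348: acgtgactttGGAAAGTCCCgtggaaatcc
TNFAIP3, chr6:138188331-138188360: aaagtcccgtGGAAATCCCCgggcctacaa
CXCL1, chr4:74735021-74735050: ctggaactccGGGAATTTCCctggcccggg
CXCL2, chr4:74964971-74965000: ctggagctccGGGAATTTCCctggcccggg
BIRC3, chr11:102188006-102188035: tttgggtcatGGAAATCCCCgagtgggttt
BIRC3, chr11:102188070-102188099: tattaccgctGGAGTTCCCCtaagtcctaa
Counted from the start site of the RefSeq entry, the first matching base lay at -49 in NFKB1, -81 in NFKBIA, -67 and -55 in TNFAIP3, -79 in CXCL1, -78 in CXCL2, and -199 and -135 in BIRC3. Gene positions given below are from GENCODE and can start elsewhere, as they do for NFKB1 and TNFAIP3. In CXCL1 and CXCL2 the same stretch also matched on the other strand, shifted by 1 base. Every match shown for NFKBIA, TNFAIP3 and BIRC3 was on the strand opposite to the gene. There the reverse complement of the capitals fits the consensus.

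The knockdown and the cell label were checked first. ADAR, the gene silenced, was listed in PARS-seq at 40.7 and 46.8 RPKM in control and at 15.1 RPKM in both KD columns, and in RNA-seq at 54.8 RPKM in control and 15.4 in KD. In Ribo-seq it was listed at 43.6 and 55.5 RPKM in control replicates 1 and 2, at 8.73 RPKM in KD replicate 1 and at 44 RPKM in KD replicate 2. The library labelled Ribo-seq KD replicate 2 was therefore no lower in ADAR than control replicate 1, and Ribo-seq changes are given below with and without it.

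All 6 hepatocyte markers (ALB, AFP, APOA1, TTR, SERPINA1 and HNF4A) were under 1 RPKM in every column, 5 of them at no more than 0.0821 RPKM and HNF4A, in a row shared with a microRNA gene, at no more than 0.803 RPKM. Their summed level was 0.0807 and 0.0816 RPKM in PARS-seq control and 0.039 and 0.0481 RPKM in KD, 0.558 RPKM in RNA-seq control and 0.893 RPKM in KD, and 0.518 and 0 RPKM in Ribo-seq control and 0.367 and 0 RPKM in KD. These values go against the label, so the cells are called by their label only. Of 5 blood cell markers (PTPRC, CD68, CD14, ITGAM and CD3E), 3 were under 1 RPKM in every column and CD68 was the most abundant, at 1.48 to 22.7 RPKM. Their sum was 5.37 and 5.12 RPKM in PARS-seq control against 1.93 and 2.69 RPKM in KD, 23 RPKM in RNA-seq control against 16 RPKM in KD, and 14.1 and 2.14 RPKM in Ribo-seq control against 6.14 and 3.41 RPKM in KD. Of 5 endothelial and stromal markers (PECAM1, VWF, COL1A1, COL1A2 and PDGFRB), 3 were under 1 RPKM in every column and COL1A1 was the most abundant, at 9.75 to 54.7 RPKM. Their sum was 21.2 and 30.3 RPKM in PARS-seq control against 17.2 and 19.8 RPKM in KD, 57.3 against 41.9 RPKM in RNA-seq, and 13.8 and 17.1 against 12.9 and 10.8 RPKM in Ribo-seq. Both sums were lower in KD in PARS-seq and RNA-seq, the endothelial and stromal sum was also lower in both Ribo-seq KD libraries, and their part in the results was not tested. The sums are made up mostly of CD68, COL1A1 and PDGFRB and need not hold for the other markers. In RNA-seq CD14 (0.313 RPKM in control, 0.385 in KD), VWF (0.0306 and 0.0824) and PECAM1 (0.0717 and 0.0892) were not lower in KD.

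Changes were tested on log2 of RPKM with 1 added, by limma fitted on every gene with a mean of at least 1 RPKM in the assay, and a gene was called at an adjusted p under 0.05. In PARS-seq 6 of the 9 genes could be tested, CXCL1 and IER3 were listed at 0 in every column, and ICAM1 had a mean under 1 RPKM. NFKBIA and BIRC3, 2 of the 6, fell, beside 7.43% of the 11153 genes tested that fell, and 0 of the 6 rose, with 15.5% of all genes called in either direction. In Ribo-seq limma called 0 of the 5 genes tested, beside 0% of 10882 genes, and at an unadjusted p under 0.05 it found 0 of the 5 and 43 of all genes. ADAR itself was not called in Ribo-seq (-1.26, SE 0.82, adjusted p 1, -2.37 without the library labelled KD replicate 2 and -0.16 without KD replicate 1) by this fit, so a count of 0 does not show that these genes did not differ, while in PARS-seq ADAR fell by 1.47 (SE 0.17, adjusted p 0.002). In RNA-seq, with 1 library per condition, no test was made and folds were taken with 1 RPKM added. CXCL2 and ICAM1, 2 of the 7 genes with a mean of at least 1 RPKM, were past 1.5-fold, beside 9.13% of 10946 genes. With 0.1 RPKM added it was the same 2 of the 7, beside 1480 of the 10946. ICAM1 reached the mean of 1 RPKM only through its KD value, so it had to differ to be counted. The median log2 change of those genes with a mean of at least 1 RPKM was -0.20 in PARS-seq, 0.35 in Ribo-seq and 0.20 in RNA-seq, beside 0.04, 0.08 and -0.01 over all genes. BIRC3 in Ribo-seq and ICAM1 in RNA-seq reached that mean through KD alone, and over genes at 1 RPKM or more in control as well as KD the medians were -0.20, 0.22 and 0.10, beside 0.04, 0.08 and -0.01. The PARS-seq median was -0.12 and -0.27 without control replicates 1 and 2 and -0.31 and -0.09 without KD replicates 1 and 2. The Ribo-seq median of these genes rests on single libraries, at 0.67 without the library labelled KD replicate 2 (0.12 over all genes), -0.32 without KD replicate 1 (0.03 over all genes) and 0.17 without control replicate 2 (-0.06 over all genes). By mean PARS-seq level the order was NFKBIA (29.1 RPKM), RELA (21.9), TNFAIP3 (9.21), NFKB1 (4.98), BIRC3 (3.57), CXCL2 (2.86) and ICAM1 (0.227), and the columns of NFKBIA and RELA, of NFKB1 and BIRC3, and of BIRC3 and CXCL2 overlapped. The order was not the same in both conditions, since in KD the mean of RELA (24.5) was above that of NFKBIA (21.9) and that of CXCL2 (3.33) above that of BIRC3 (2.41). These p-values measure only the spread between these samples, whose replicates the paper calls biological and whose labels do not say whether they were separate cultures.

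**Figure D1:**
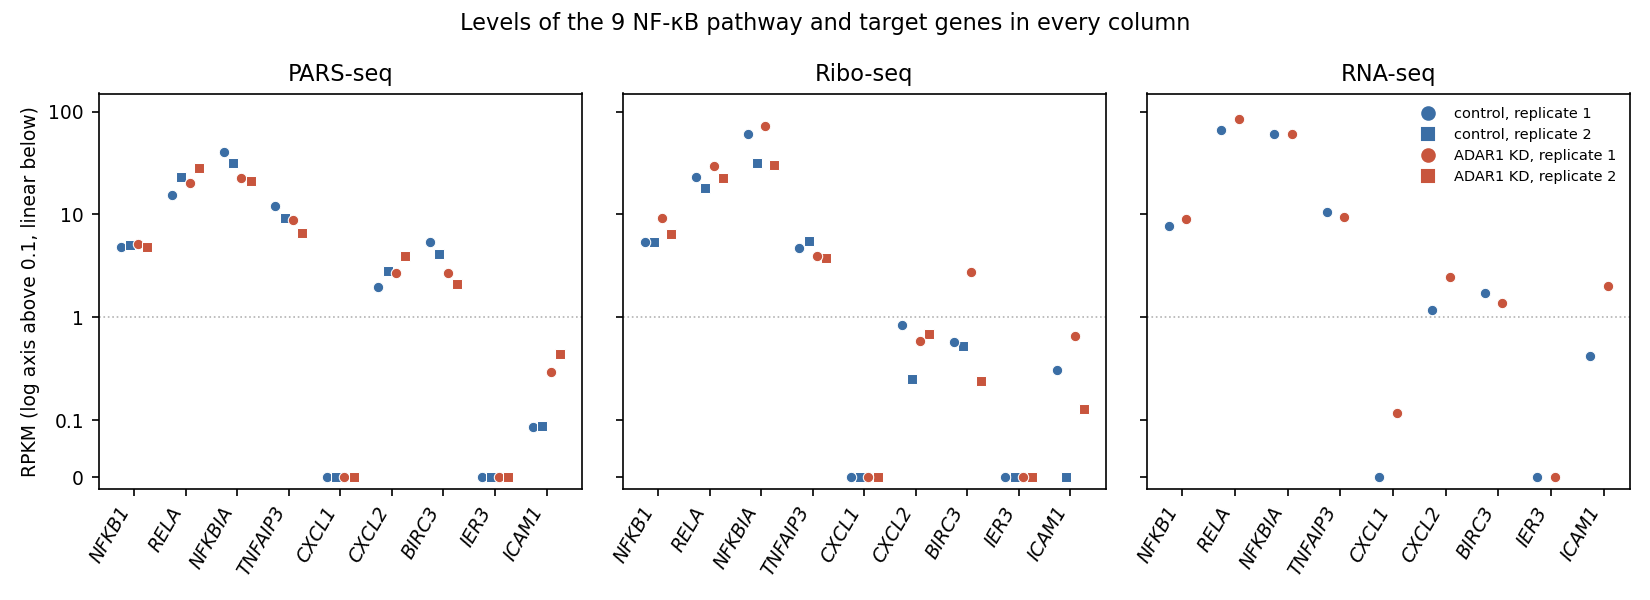
RPKM of the 9 genes in each column of PARS-seq, Ribo-seq and RNA-seq (log axis above 0.1, linear below), with control in blue, ADAR1 KD in red, replicate 1 as circles and replicate 2 as squares. NFKBIA in PARS-seq lies at 40.7 and 31.9 RPKM in control and at 22.6 and 21.2 RPKM in KD, and IER3 lies at 0 in every column.

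NFKB1 (chr4:103422487-103538459, plus strand, GRCh37), which encodes the p105 precursor of the p50 subunit, was listed in PARS-seq at 4.8 and 5.09 RPKM in control and at 5.21 and 4.83 RPKM in KD. The 4 values lay close together and the groups overlapped. The estimated log2 change was 0.02 (SE 0.14, adjusted p 0.943), and its sign changed when the data were centred on the median (-0.02). In Ribo-seq NFKB1 was at 5.41 and 5.45 RPKM in control and at 9.24 and 6.51 RPKM in KD, so both KD libraries lay above both controls. This change of 0.45 (SE 0.40) had an adjusted p of 1 and was 0.67 without the library labelled KD replicate 2 and 0.22 without KD replicate 1. Ribo-seq groups that did not overlap were found for NFKB1 and TNFAIP3, 2 of the 5 genes tested, and for 17.8% of all genes tested. RNA-seq gave 7.79 RPKM in control and 9.07 RPKM in KD, a ratio of 1.16 with a 95% counting interval of 1.07 to 1.26.

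RELA (chr11:65421070-65430561, minus strand) encodes the p65 subunit, which carries the transactivation domain, and was the most abundant of the genes in RNA-seq. It was listed in PARS-seq at 15.3 and 23.2 RPKM in control and at 20.4 and 28.6 RPKM in KD. Replicate 2 was the higher in both groups and the groups overlapped. The log2 change of 0.34 (SE 0.24) did not pass (adjusted p 0.363), and the same-numbered ratios of KD to control were 1.34 and 1.23. It rests on single libraries, at 0.06 and 0.63 (adjusted p 0.0504) without control replicates 1 and 2 and at 0.58 and 0.11 without KD replicates 1 and 2. In Ribo-seq the controls were at 23.0 and 17.9 RPKM and the KD libraries at 29.8 and 22.7 RPKM, again with overlap. The change there was 0.35 (SE 0.45, adjusted p 1) and 0.54 without the library labelled KD replicate 2, 0.52 without control replicate 1, 0.16 without KD replicate 1 and 0.17 without control replicate 2. In RNA-seq RELA was at 65.8 RPKM in control and 84.5 RPKM in KD, a ratio of 1.28 (1.24 to 1.33), and it was higher than 94.5% of all genes by its mean there. Per kilobase, the mean level of RELA was above that of NFKB1 in each assay, at 21.9 against 4.98 RPKM in PARS-seq and 75.2 against 8.43 RPKM in RNA-seq.

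NFKBIA (chr14:35870285-35873955, minus strand) encodes IκBα, the inhibitor that NF-κB itself induces, and holds the κB match shown above. It was listed in PARS-seq at 40.7 and 31.9 RPKM in control and at 22.6 and 21.2 RPKM in KD. Both KD values lay below both controls, which were themselves further apart than the KD values. NFKBIA fell by 0.70 on the log2 scale (SE 0.18, adjusted p 0.0372), with same-numbered ratios of 0.555 and 0.663. The call was lost without PARS-seq control replicate 1 (-0.53, adjusted p 0.175) or without KD replicate 2 (-0.65, adjusted p 0.113), and kept without control replicate 2 (-0.87, 0.0047) or KD replicate 1 (-0.74, 0.0451). It was also lost when genes of any level were tested (adjusted p 0.161), a setting that called 0 of all 21574 genes and not ADAR either (adjusted p 0.0662). Groups that did not overlap were found in PARS-seq for NFKBIA, TNFAIP3 and BIRC3, 3 of the 6 genes tested, and for 60.5% of all genes tested. In bulk RNA, fewer cells of a type and less RNA per cell cannot be told apart.

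In RNA-seq and Ribo-seq the NFKBIA means of control and KD lay closer together. RNA-seq gave 60.6 RPKM in both conditions, a ratio of 1 with a counting interval of 0.952 to 1.05 from 3870 and 2869 reads. In Ribo-seq it was at 60.9 and 31.7 RPKM in control and at 71.8 and 30.2 RPKM in KD. Replicate 1 was the higher library in both groups, by more than the groups differed. The Ribo-seq change was 0.08 (SE 0.66, adjusted p 1), 0.69 without the library labelled KD replicate 2, 0.54 without control replicate 1, -0.53 without KD replicate 1 and -0.38 without control replicate 2. The Ribo-seq change exceeded the PARS-seq change by 0.78 (SE 0.69, adjusted p 1), so a difference between these assays was not shown.

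TNFAIP3 (chr6:138188351-138204451, plus strand) encodes A20, a ubiquitin-editing enzyme that shuts off signals to IKK. It was listed in PARS-seq at 12.2 and 9.15 RPKM in control and at 8.81 and 6.68 RPKM in KD. The groups did not overlap, but control replicate 2 and KD replicate 1 were close. The log2 change was -0.41 (SE 0.20) and did not pass (adjusted p 0.187), with same-numbered ratios of 0.723 and 0.731. Leaving out control replicate 1 or KD replicate 2 gave -0.22 and -0.24, and leaving out control replicate 2 or KD replicate 1 gave -0.60 (adjusted p 0.0581) and -0.59 (0.0954). Ribo-seq values of 4.75 and 5.52 RPKM in control lay above the 3.93 and 3.77 RPKM in KD, a change of -0.34 (SE 0.38, adjusted p 1) and of -0.31 without the library labelled KD replicate 2. In RNA-seq TNFAIP3 was at 10.6 RPKM in control and 9.44 RPKM in KD, a ratio of 0.894 (0.836 to 0.956).

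CXCL1 (chr4:74735110-74737025, plus strand) and CXCL2 (chr4:74962757-74964913, minus strand) encode chemokines that attract neutrophils. CXCL1 was listed at 0 in every PARS-seq and Ribo-seq column and in RNA-seq control, and at 0.117 RPKM in RNA-seq KD. That is at least 1 read, and with no other column above 0 the number is not fixed. CXCL2 was listed in PARS-seq at 1.96 and 2.83 RPKM in control and at 2.70 and 3.96 RPKM in KD. Its groups overlapped, since KD replicate 1 lay below control replicate 2. The log2 change was 0.35 (SE 0.19) and did not pass (adjusted p 0.248), with same-numbered ratios of 1.38 and 1.4. The change was smaller without control replicate 1 (0.16) or KD replicate 2 (0.14) and larger without control replicate 2 (0.53, adjusted p 0.0501) or KD replicate 1 (0.56, 0.0727). In RNA-seq CXCL2 was at 1.18 RPKM in control and 2.45 RPKM in KD, a ratio of 2.07 (1.47 to 2.93) from 58 and 89 reads. In Ribo-seq it was at 0.835 and 0.25 RPKM in control and at 0.592 and 0.691 RPKM in KD, values that rest on 1 or 2 reads per library, and it was not tested. Only reads with a unique alignment were counted, and of the 30-base stretches of the CXCL1 transcript 15.1% also occur in CXCL2 or CXCL3, as do 22.5% of those of CXCL2 in CXCL1 or CXCL3. The effect of this on the levels was not tested.

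BIRC3 (chr11:102188215-102210134, plus strand) encodes cIAP2, a ubiquitin ligase at the TNF receptor that protects cells from death. It was listed in PARS-seq at 5.37 and 4.10 RPKM in control and at 2.69 and 2.12 RPKM in KD. Both KD values lay well below both controls. BIRC3 fell by 0.75 on the log2 scale (SE 0.17, adjusted p 0.023), and the same-numbered ratios were 0.501 and 0.518. The call was lost without PARS-seq KD replicate 2 (-0.63, adjusted p 0.0665) and when genes of any level were tested (adjusted p 0.183), and it was kept without each of the other PARS-seq replicates.

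The mean level of BIRC3 was lower in the other assays, at 1.56 RPKM in RNA-seq and 1.03 RPKM in Ribo-seq against 3.57 RPKM in PARS-seq. In RNA-seq it was at 1.74 RPKM in control and 1.38 RPKM in KD, a ratio of 0.794 (0.684 to 0.92) from 491 and 289 reads. In Ribo-seq it was at 0.581 and 0.522 RPKM in control, at 2.78 RPKM in KD replicate 1 and at 0.241 RPKM in KD replicate 2. The KD libraries were thus the highest and the lowest of the 4, on 27 and 4 reads, and the mean reached 1 RPKM through KD replicate 1. The change was 0.48 (SE 0.69, adjusted p 1), 1.29 without the library labelled KD replicate 2 and -0.32 without KD replicate 1. The Ribo-seq change exceeded the PARS-seq change by 1.23 (SE 0.70, adjusted p 1).

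IER3 (chr6:30710976-30712325, minus strand), an early-response gene whose product modulates cell death, was listed at 0 in all 10 columns. It lies on chromosome 6 between 29 and 33 Mb, where 99 of 135 protein-coding genes (73.3%) were listed at 0 in every column, beside 1020 of 16350 (6.24%) elsewhere. TNF, LTB and CFB, other NF-κB targets in this stretch, were at 0 in every column as well. The cause of these zeros was not tested, so the zero of IER3 cannot be read as a level.

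ICAM1 (chr19:10381769-10397291, plus strand) encodes an adhesion molecule that binds leukocyte integrins. It was listed in PARS-seq at 0.0889 and 0.0907 RPKM in control and at 0.292 and 0.438 RPKM in KD. Both KD values lay above both controls, with same-numbered ratios of 3.29 and 4.83 (KD over control), but the mean was under 1 RPKM and the change was not tested. In RNA-seq ICAM1 was at 0.424 RPKM in control and 2.00 RPKM in KD, a ratio of 4.72 (3.49 to 6.47) from 56 and 196 reads. In Ribo-seq it was at 0.309 and 0 RPKM in control and at 0.658 and 0.128 RPKM in KD, on at most 3 reads per library, and it was not tested. CXCL2 and ICAM1 were the genes past 1.5-fold in RNA-seq, both higher in KD.

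**Figure D2:**
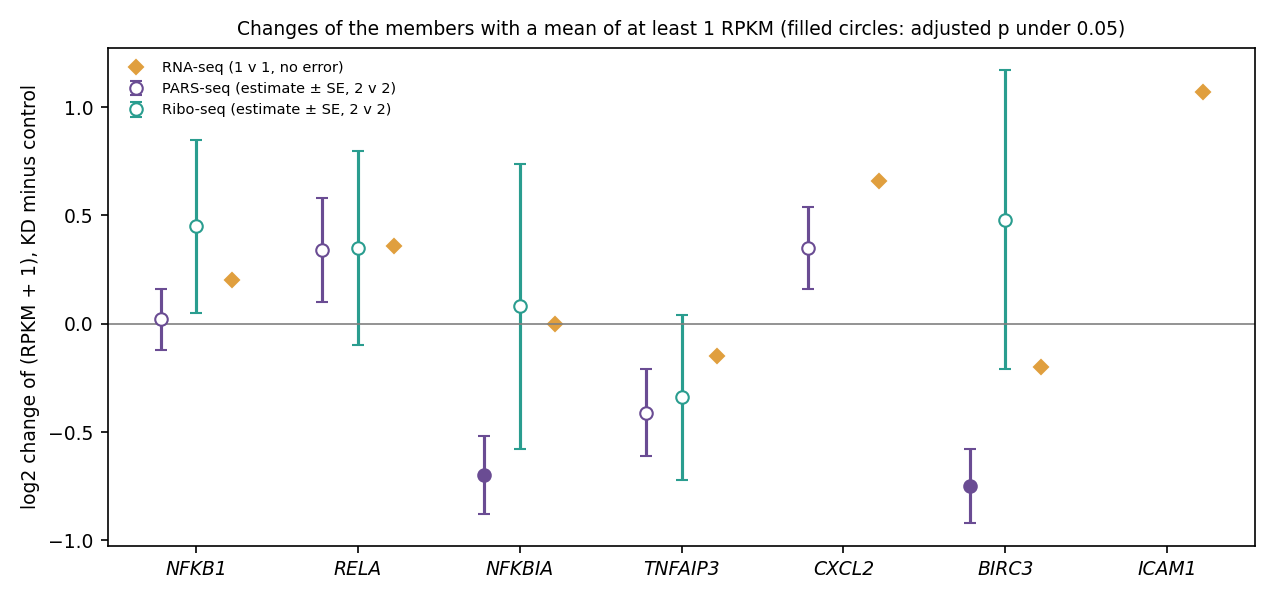
Log2 change of RPKM with 1 added, KD minus control, for the genes with a mean of at least 1 RPKM in an assay, with bars of 1 standard error for PARS-seq and Ribo-seq (2 against 2 columns) and no error for RNA-seq (1 against 1). Filled circles passed an adjusted p of 0.05 and are NFKBIA at -0.70 and BIRC3 at -0.75 in PARS-seq.

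The read numbers come from the RPKM values themselves, as the fewest whole reads that give them in RNA-seq and Ribo-seq. For all 792 genes tried, with low values above 0 in all 6 columns, the values were whole within 0.02 reads, and for 0 of them when the depths were set wrong. By the same measure the RNA-seq KD library was 1.35-fold shallower than the RNA-seq control, and the Ribo-seq libraries were 40.9-fold (control replicate 1), 12.3-fold (control replicate 2), 29-fold (KD replicate 1) and 16.9-fold (KD replicate 2) shallower. Among the genes described, NFKBIA had 95 and 165 reads in Ribo-seq control and 158 and 114 in KD, and NFKB1 had 22 and 74 in control, against 53 and 64 in KD. Reads carried no molecular identifiers, so the intervals given cover counting error only. PARS-seq columns are means of 2 libraries, and no reads were derived from them.

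The difference between the Ribo-seq and the PARS-seq change was tested for 5 of the genes as an interaction. This fit shares a variance between the assays, though their spread differs, so its SEs can be too small. That of NFKB1 (0.35) is below the SE of its Ribo-seq change alone (0.40). Limma called 0 of the 5, beside 0% of 10339 genes, and at an unadjusted p under 0.05 it found 0 of the 5 and 163 of all genes. The estimates ran from 0.00 (SE 0.48) for RELA to 1.23 for BIRC3, with 0.08 (SE 0.37) for TNFAIP3 and 0.43 (SE 0.35) for NFKB1. Without the library labelled Ribo-seq KD replicate 2 they were 0.19 for RELA, 0.10 for TNFAIP3, 0.65 for NFKB1, 1.39 for NFKBIA and 2.03 for BIRC3, and none was called. Without Ribo-seq KD replicate 1 they were -0.18, 0.05, 0.21, 0.17 and 0.42 in the same order, and again none was called. The NFKBIA estimate was also 0.32 and 1.24 without Ribo-seq control replicates 2 and 1, and those of RELA and TNFAIP3, both near 0, took either sign.

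Translation efficiency was the log2 of Ribo-seq over RNA-seq in the same condition, with 1 RPKM added to both. It was computed for the same 5 genes with no test, because each condition has 1 RNA-seq library. For RELA it was -1.48 and -1.82 in control, against -1.47 and -1.85 in KD, below the medians over 10142 genes of -0.38 and -0.61 in control, against -0.36 and -0.44 in KD. RELA thus had fewer ribosome reads for its RNA level than the median gene in each library, and its KD minus control difference was -0.01. For NFKBIA it was 0.01 and -0.92 in control, against 0.24 and -0.98 in KD, a spread between replicates larger than the difference of 0.09 between conditions. For BIRC3 it was -0.80 and -0.85 in control, against 0.67 and -0.94 in KD, so the difference of 0.69 rests on KD replicate 1. With 0.1 RPKM added the BIRC3 difference was 0.92. The differences were 0.26 for NFKB1 and -0.19 for TNFAIP3, and the median over the 5 genes was 0.09. Without the library labelled KD replicate 2 they were 0.48 for NFKB1, 0.18 for RELA, 0.70 for NFKBIA, -0.16 for TNFAIP3 and 1.5 for BIRC3, with a median of 0.48. Without KD replicate 1 they were 0.04, -0.20, -0.52, -0.21 and -0.12 in that order. The median was -0.20 without KD replicate 1, -0.09 without control replicate 2 and 0.25 without control replicate 1, so its sign depends on single libraries.

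The genes whose pattern was most like each of these 5 were found by Pearson correlation over the 10 columns, after the mean of each assay was subtracted, among 9804 genes with a mean of at least 1 RPKM in each assay. They were RBM48 (0.98) and CETN3 (0.943) for NFKB1, and SF3A2 (0.975) and ZNF574 (0.959) for RELA. For NFKBIA they were VIM (0.993) and TBX3 (0.987). For TNFAIP3 they were LOC100652739 (0.956) and MDFIC (0.948), and for BIRC3 SLC15A4 (0.956) and C11orf71 (0.94). These are the highest of many coefficients over columns that share libraries and depth, and they are a description.

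PARS-seq reads were also counted by the base at which they start, on transcripts known only by UCSC identifiers. A supplementary sheet of the study ties identifiers to gene symbols for transcripts that the study chose on these samples. By its description, they changed in their share of paired bases between control and KD. NFKBIA (uc001wtf.4, 1579 bases) was the only one of the 9 genes in that sheet. Libraries held 96618292 to 214584779 read starts, and values are scaled to 1000000 read starts on the 4722 transcripts listed in all 8 libraries, since S1 control replicate 1 lists no others. The most covered transcript alone took 26 and 39.1% of these read starts in S1 control, 48.9 and 46.1% in S1 KD, 38.2 and 46.4% in V1 control and 59.3 and 47% in V1 KD. The median log2 change over all transcripts tested was therefore -0.349 for S1 and -0.325 for V1 with library totals, and 0.00402 and 0.00292 with TMM scaling, which discounts such a transcript.

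NFKBIA had 4411 and 3003 S1 read starts in the controls and 1738 and 1218 in the KD libraries, or 41.8 and 26.6 after scaling against 13.6 and 13.8. Both KD libraries lay far below both controls, and 33.3 and 33.6% of the bases had an S1 read start in control against 21 and 20.9% in KD. The S1 read starts of NFKBIA fell by 1.26 on the log2 scale (SE 0.32, adjusted p 0.00132), and with TMM scaling by 0.90 (SE 0.22, adjusted p 0.00592). Relative to the median transcript the S1 change was -0.91 under either scaling, and 5.06% of transcripts had a lower change. With library totals 71 of 4721 transcripts rose and 881 fell (18.7%), so 7.46% of the calls were rises, while with TMM scaling 306 rose and 436 fell (9.24%), so 41.2% were rises. With library totals and replicate number as a block 88 rose and 950 fell. The counts also changed when single libraries were left out, and the median change ran from -0.504 (without S1 control replicate 2) to -0.205 (without S1 control replicate 1). The S1 call was lost without S1 KD replicate 1 (-1.25, adjusted p 0.106) or S1 KD replicate 2 (-1.27, adjusted p 0.0943), where the change was nearly the same and the lone KD library was assumed to vary like the controls.

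NFKBIA had 4206 and 3330 V1 read starts in the controls and 3738 and 2551 in the KD libraries, or 40.9 and 31.4 after scaling against 18.9 and 23.1. Again both KD libraries lay below both controls, and 44.8 and 41.6% of the bases had a V1 read start in control against 40.7 and 37.6% in KD. The V1 change of -0.77 (SE 0.37) did not pass (adjusted p 0.208), nor did the -0.43 with TMM scaling (adjusted p 0.131). Relative to the median transcript it was -0.44 with library totals and -0.43 with TMM scaling. With library totals 17 of 4716 transcripts rose and 357 fell (7.57%), and with TMM scaling 175 rose and 327 fell (6.93%), so rises were 4.55% and 34.9% of the calls. With library totals and replicate number as a block 3 rose and 100 fell. The counts also changed when single libraries were left out, and the median change ran from -0.519 (without V1 KD replicate 2) to -0.143 (without V1 KD replicate 1). Whether the S1 and V1 changes differ was not tested.

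**Figure D3:**
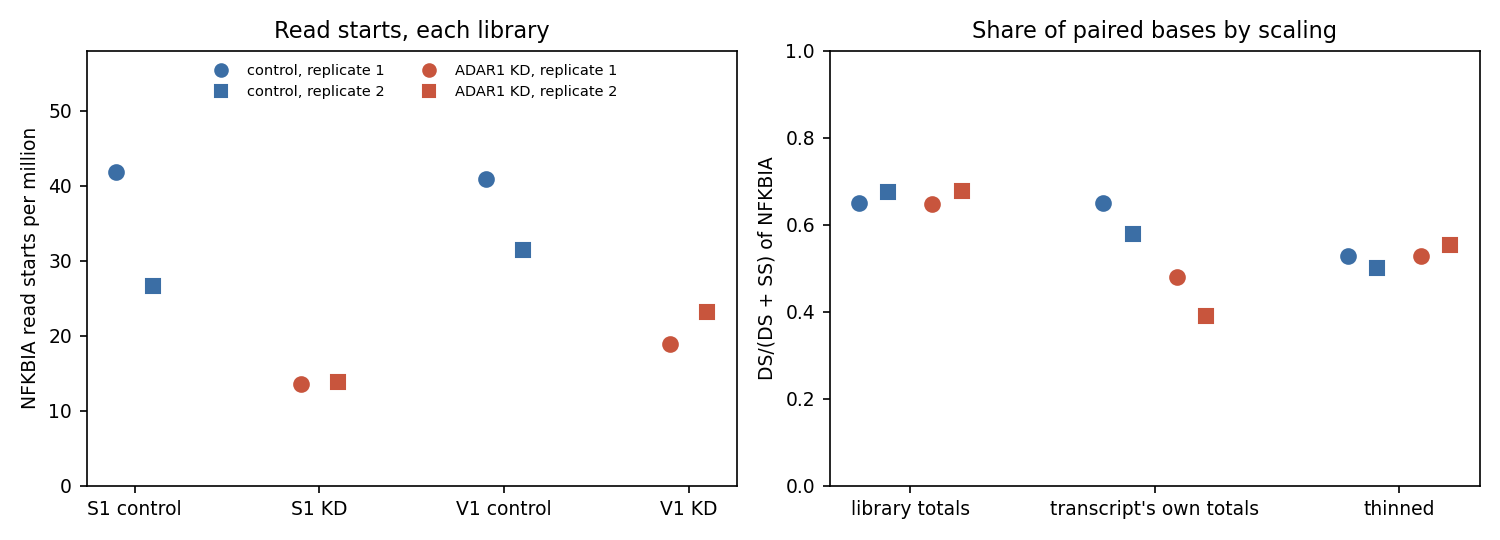
Left, NFKBIA read starts per 1000000 in each S1 and V1 library. Right, the share of its classified bases that are double-stranded, DS/(DS + SS), in each replicate under 3 scalings of the read starts. Control and KD replicates overlap with library totals (0.65 and 0.675 against 0.648 and 0.677). They lie apart with the transcript's own totals (0.65 and 0.579 against 0.48 and 0.391). With thinned read starts KD is equal or higher (0.529 and 0.5 in control against 0.529 and 0.554 in KD).

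A base was classed as double-stranded (DS) or single-stranded (SS) by Fisher's exact test of its V1 and S1 read starts against the library totals (two-sided p under 0.05). NFKBIA had 201 and 166 DS bases and 108 and 80 SS bases in the controls, against 127 and 107 DS bases and 69 and 51 SS bases in the KD replicates. The share DS/(DS + SS) was 0.65 and 0.675 in control, against 0.648 and 0.677 in KD. The groups overlapped, and the difference of -5.39e-05 lay within the spread between replicates. The study selected the transcripts of the identifier sheet on this share, which moved the same way in both replicates beyond a set limit. By that rule the study found a change for NFKBIA that the values above do not show. The cause was not tested. Over 4476 transcripts the median share was 0.615 and 0.604 in control, against 0.542 and 0.574 in KD, with a median difference of -0.0533, and 90.8% of transcripts had a lower difference than NFKBIA. The NFKBIA value depends on the base it is set against. With the transcript's own totals the share was 0.65 and 0.579 in control, against 0.48 and 0.391 in KD, and with read starts thinned to the same number in every library it was 0.529 and 0.5 in control, against 0.529 and 0.554 in KD. No test between conditions was made on this share.

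The positions of the read starts along NFKBIA were compared over its 1579 bases, which share libraries and sequence, so the coefficients are a description. Spearman coefficients were 0.509 to 0.622 between replicates (4 pairs of libraries), 0.516 to 0.627 between control and KD with the same enzyme (8 pairs), and 0.0435 to 0.139 between S1 and V1 (16 pairs). Over the whole transcript, the coefficients between control and KD were close to those between replicates, and the enzymes differed. In windows of up to 100 bases, the S1 shares of control and KD lay apart in 6 of 16 windows, with KD higher in 3 and lower in 3, and the V1 shares in 2 of 16, with no test. The S1 groups lay furthest apart from base 301 to 400, with 11.7 and 10.2% of the read starts of the transcript in control, against 7.77 and 5.58% in KD. From base 601 to 700 KD was the higher, at 12.5 and 9.85% against 8.77 and 7.46%, and the S1 window with most read starts on average, base 401 to 500, had 19.5 and 13.2% in control, against 13.1 and 12% in KD. V1 read starts had peaks from base 401 to 500 (19.1 and 11% in control, 19.4 and 13.6% in KD) and from base 1001 to 1100 (19.2 and 22.9% in control, 18.6 and 23.6% in KD). Within each of these V1 windows the replicates differed by more than the conditions did.

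Single bases were picked after their values were seen. The strongest S1 base was base 285 in both controls, with 5.51 and 4.13% of the read starts of NFKBIA there and 5.18 and 3.28% in KD. In both KD libraries it was base 684, with 5.93 and 4.19% there and 3.83 and 3.0% in control. At base 285 the groups overlapped, at base 684 both KD values lay above both controls, and neither difference was tested.

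**Figure D4:**
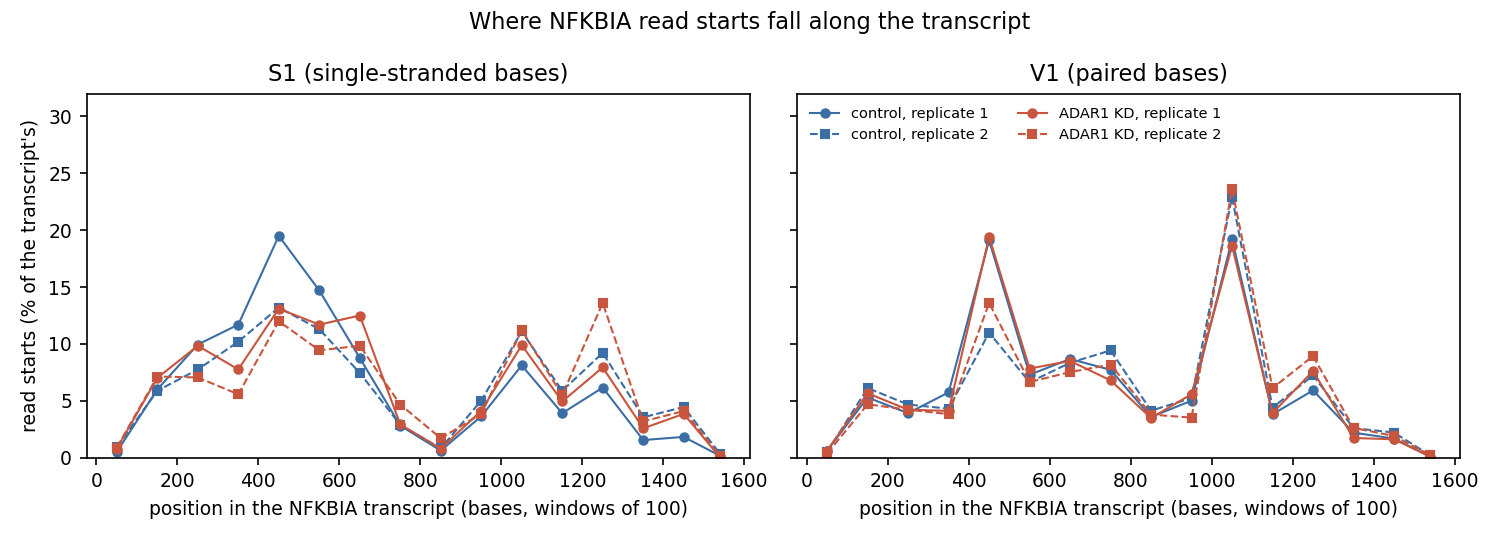
Share of the S1 (left) and V1 (right) read starts of NFKBIA in windows of 100 bases along the transcript, one line per library, control in blue and ADAR1 KD in red. In the window from base 1001 to 1100 the V1 share is 19.2 and 22.9% in control, against 18.6 and 23.6% in KD.

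The other genes of the pathway were taken from 11 lists by role, 93 genes in all with the 9 above. In PARS-seq 72 of them were tested, 4 rose and 5 fell, with a median log2 change of 0.00. With replicate number as a block 20 rose and 19 fell, beside 3129 and 2527 of all 11153 genes. The counts also changed when single replicates were left out, and the median ran from -0.05 (without control replicate 1) to 0.05 (without control replicate 2). In Ribo-seq limma called 0 of 64 (0 at an unadjusted p under 0.05), with a median of 0.18 (0.39 without the library labelled KD replicate 2, -0.01 without KD replicate 1 and 0.11 without control replicate 2, beside 0.12, 0.03 and -0.06 over all genes). In RNA-seq, with 1 RPKM added, 12 of 69 were past 1.5-fold, 11 up and 1 down, with a median of 0.08. Of all 10946 genes 489 were up and 510 down. Genes such as EIF2AK2 (2.51 RPKM in control, 4.08 in KD) and IRAK4 (1.44 and 0.946) pass by RPKM alone and are not among the 12. Of the 11 up, IL6 and ICAM1 reached a mean of 1 RPKM only through KD and had to be up to be counted. Over genes at 1 RPKM or more in both conditions, again with 1 RPKM added, 9 of 65 were up and 1 down, beside 438 up and 467 down of 10631. By role, PARS-seq called 0 of 5 NF-κB subunits, 1 of 6 IκB inhibitors (NFKBIA), 2 of 24 genes for IKK, adaptors and upstream kinases, 1 of 4 receptors tested, 0 of 6 feedback inhibitors, 2 of 6 cytokine and chemokine targets tested, 1 of 6 survival targets tested (BIRC3), 1 of 2 acute-phase targets tested, 1 of 9 immediate early genes and 0 of 4 sensors of double-stranded RNA. None of the 3 adhesion targets was tested. The 9 of 72 called, NFKBIA and BIRC3 among them, stand beside 15.5% of all genes tested. The receptor and acute-phase calls are IL1R1 and LCN2, which were tested only because 1 group was high, and over genes at 1 RPKM or more in both groups 3 of 69 rose and 4 fell, beside 14.3% of 10806 genes called. With genes of any level tested, 0 of the 93 were called, and 0 of all genes.

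Of the targets, IL6, a cytokine, was listed in PARS-seq at 1.18 and 1.61 RPKM in control and at 5.13 and 6.77 RPKM in KD, and it rose by 1.53 (SE 0.17, adjusted p 0.00182). The acute-phase gene LCN2 was at 0.201 and 0.21 RPKM in control and at 2.77 and 3.34 RPKM in KD, and it rose by 1.74 (SE 0.13, adjusted p 0.000279). It entered the test only through its KD level, so a difference was needed for it to be tested. CCL2, a chemokine for monocytes, went the other way, from 33 and 39.6 RPKM in control to 10.5 and 11.8 RPKM in KD, and fell by 1.61 (SE 0.17, adjusted p 0.00167). JUN, an immediate early gene, was at 5.58 and 3.79 RPKM in control and at 12.7 and 13.2 RPKM in KD, and it rose by 1.31 (SE 0.19, adjusted p 0.00441), while JUNB did not pass (-0.78, SE 0.26, adjusted p 0.0783) but was called without control replicate 2 (-1.12, adjusted p 0.000166) or KD replicate 1 (-1.02, adjusted p 0.00632) and was smaller without control replicate 1 (-0.44, adjusted p 0.283) or KD replicate 2 (-0.54, adjusted p 0.237). JUNB was higher in KD in RNA-seq (89.4 RPKM in control, 136 RPKM in KD), and its Ribo-seq change of 0.17 (SE 0.57, adjusted p 1) was 0.71 without the library labelled KD replicate 2, -0.37 without KD replicate 1 and -0.06 without control replicate 2. The Ribo-seq change was 0.32 (SE 0.80, adjusted p 1) for CCL2, opposite in sign to PARS-seq, and 0.53 (SE 0.54, adjusted p 1) for JUN. Without the library labelled KD replicate 2 these were 0.99 and 1.09, without KD replicate 1 -0.35 and -0.02, without control replicate 1 1.23 and 0.76, and without control replicate 2 -0.59 and 0.31. For TRAF6 it was 0.45 and for IRAK4 -0.31 (adjusted p 1 for both), with 0.44 and -0.14 without the library labelled KD replicate 2, 0.46 and -0.48 without KD replicate 1, 0.29 and -0.19 without control replicate 1, and 0.61 and -0.43 without control replicate 2. In RNA-seq IL6 was at 0.332 RPKM in control and 4.95 RPKM in KD and reached a mean of 1 RPKM through KD, JUN at 4.65 and 13.0 RPKM, RELB, an NF-κB subunit, at 8.12 and 21.3 RPKM, CCL2 at 4.47 and 3.06 RPKM, and IKBKG, the regulatory subunit of IKK, at 17.0 and 12.0 RPKM.

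Upstream, the interleukin-1 receptor gene IL1R1 was listed in PARS-seq at 2.17 and 2.3 RPKM in control and at 0.512 and 0.382 RPKM in KD, and it fell by 1.16 (SE 0.12, adjusted p 0.00148). It entered the test only through its control level, so a difference was needed for it to be tested. In RNA-seq it was at 2.31 RPKM in control and 1.01 RPKM in KD. TRAF6, an adaptor downstream of that receptor, was at 3.12 and 3.72 RPKM in control and at 5.73 and 5.48 RPKM in KD in PARS-seq and rose by 0.58 (SE 0.15, adjusted p 0.0341). The kinase gene IRAK4 was at 3.29 and 3.16 RPKM in control and at 2.12 and 1.92 RPKM in KD, and it fell by 0.48 (SE 0.13, adjusted p 0.0427). The IRAK4 call was lost without any one of the PARS-seq replicates, with adjusted p of 0.135 and 0.0565 without control replicates 1 and 2 and 0.0847 and 0.218 without KD replicates 1 and 2. The TRAF6 call was lost without control replicate 1 (0.179), KD replicate 1 (0.0857) or KD replicate 2 (0.0752). The IRAK4 call was also lost with no mean trend (0.0653). IL6, LCN2, CCL2, JUN and IL1R1 were called without each replicate in turn.

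**Figure D5:**
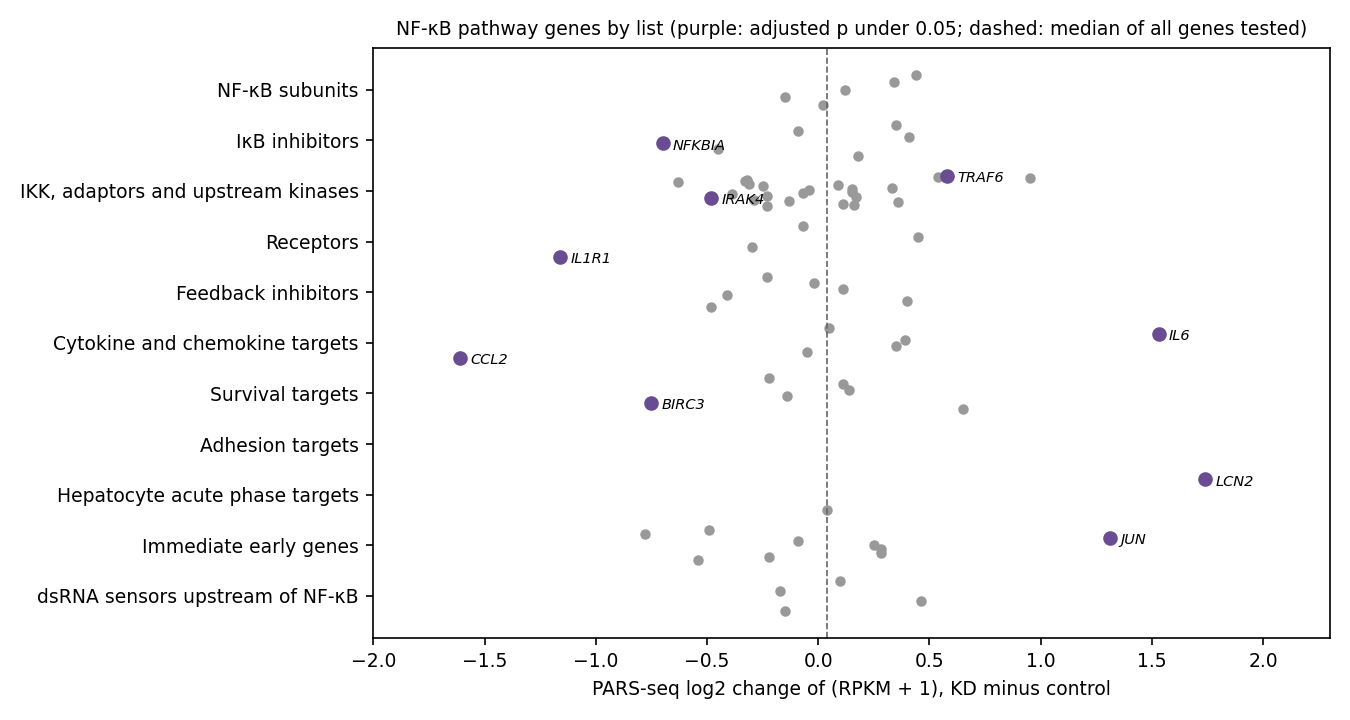
PARS-seq log2 change (KD minus control) of each tested gene of the NF-κB pathway lists, by role, with genes at an adjusted p under 0.05 in purple and a dashed line at the median of all genes tested (0.04). Calls lie on both sides, from CCL2 at -1.61 to LCN2 at 1.74, and NF-κB subunits have none.

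In Ribo-seq the largest rises of the listed genes were in EIF2AK2 (0.94, SE 0.57), which encodes a kinase that senses double-stranded RNA, FOS (0.93, SE 0.42) and IL6 (0.90, SE 1.00), and the largest falls in NFKBID (-1.33, SE 0.61), IRAK1 (-0.87, SE 0.96) and TNIP2 (-0.72, SE 0.71), all with an adjusted p of 1. NFKBID reached a mean of 1 RPKM only through control. Without the library labelled KD replicate 2 they were 1.54, 1.20, 2.24, -1.88, -1.74 and -1.30, with the adjusted p still at 1. Without KD replicate 1 they were 0.34, 0.65, -0.44, -0.79, -0.01 and -0.13. The EIF2AK2 change was also 0.61 without control replicate 2. IL6 reached a mean of 1 RPKM in Ribo-seq through KD replicate 1, on which the sign of its change depended (-0.44 without it), and the signs of IRAK1 and TNIP2 depended on control replicate 2 (0.20 and 0.06 without it). Of the 9 other listed genes with a transcript in the identifier sheet, limma called 0 in S1 or V1 read starts with library totals, beside 20.2% of all transcripts in S1 and 7.93% in V1, and at an unadjusted p under 0.05 it found CYLD and IRAK1 in S1 and CYLD in V1. Without S1 control replicate 2 the S1 changes were -0.67 for CYLD and -0.77 for IRAK1, beside a median of -0.504 over all transcripts. Without V1 KD replicate 2 the V1 change of CYLD was -1.13, beside a median of -0.519. These genes gained a call there, in settings that also called more of all transcripts than the main fit and leave 1 library in a group. With TMM scaling EIF2AK2 rose in S1 (0.66, adjusted p 0.0469) and CYLD fell in V1 (-0.61, adjusted p 0.0489), where library totals gave 0.30 and -0.95.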

How the data were processed

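The deposited table gives RPKM per RefSeq gene, calculated by the authors from reads trimmed with cutadapt and aligned uniquely to hg19 (GRCh37) with Bowtie2. The deposited read starts are raw counts per base of UCSC transcripts, made by the authors. Each assay was fitted on its own in R 4.3.3 by limma 3.58.1, its variance prior following the mean level, on log2(RPKM + 1) over genes with a mean of at least 1 RPKM, and Benjamini-Hochberg adjustment ran over all genes tested. The Ribo-seq and PARS-seq changes were compared by an interaction term, in a fit with a variance shared by both assays. Read starts were fitted with limma on log2 of read starts scaled to 1000000, with 0.5 added, for transcripts with at least 10 read starts in 2 libraries. Scaling by library totals and by TMM are both given. Intervals of RNA-seq ratios are exact (Clopper-Pearson) from the reads. Alternatives were other pseudocounts, filters, centring and scaling, a fit without the trend, a replicate block, and leaving out each replicate. Python 3.11.15 with numpy 2.4.6, pandas 2.3.3, scipy 1.17.1 and matplotlib 3.10.9 did the rest.

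The genes named are the 9 members, ADAR, the listed pathway genes called in PARS-seq or Ribo-seq, in each assay the 3 that moved furthest up and the 3 furthest down, the 2 genes most like each member with a mean of at least 1 RPKM in each assay, and transcripts that the sheet pairs with a listed gene. TNF, LTB and CFB were named after their values were seen. The members and lists were chosen with earlier results of these data known.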

Additional observations from a re-analysis of the deposited data

How the results depend on the processing

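The number of genes called in PARS-seq among the 9 was 2, and it was 2 with a pseudocount of 0.1, with median centring and with no mean trend. It was 0 with no filter on low values, where 0 of all 21574 genes were called and ADAR had an adjusted p of 0.0662, and 1 with a filter at a mean of 5 RPKM, where BIRC3 is not tested. Leaving out a replicate gave 0 to 2, with the lone sample of a group assumed to vary like the others. The count in Ribo-seq and in the interaction was 0 under every alternative run, and in RNA-seq it was 2.

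With replicate number as a block, 5 were called in PARS-seq, and TNFAIP3 fell while RELA and CXCL2 rose beside the NFKBIA and BIRC3 falls, while 5656 of all 11153 genes were called. The block also called JUNB in PARS-seq (3.92e-08) and CYLD (0.0494) and IRAK1 (0.0186) in S1 read starts, where 88 of all 4721 transcripts rose and 950 fell. The Ribo-seq block, added after the data were seen, called 0 of the 5 genes tested, 143 of all 10882 genes and ADAR (adjusted p 0.0238). Deviations of same-numbered replicates correlated at 0.658 in PARS-seq and 0.811 in Ribo-seq, but 2 pairs do not establish a pairing.

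Directions that changed were those of NFKB1 in PARS-seq with median centring (-0.02) and, with TMM scaling, of the read starts of SOD2 (0.03), TNFRSF1A (0.14) and TNIP1 (0.19) in S1 and of FOS (0.33), RBCK1 (0.13), SOD2 (0.19) and TNIP1 (0.18) in V1. TMM scaling moves the median of all transcripts, and otherwise the cause was not tested. The difference in DS/(DS + SS) of NFKBIA, 0.000, moved to -0.179 with the transcript's own totals and to 0.027 with thinned read starts.

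Without each replicate in turn, these ranges crossed 0: in PARS-seq NFKB1 -0.03 to 0.06; in Ribo-seq NFKBIA -0.53 to 0.69, BIRC3 -0.32 to 1.29, IL6 -0.44 to 2.24, CCL2 -0.59 to 1.23, JUN -0.02 to 1.09, JUNB -0.37 to 0.71, IRAK1 -1.95 to 0.20 and TNIP2 -1.50 to 0.06; in the interaction RELA -0.28 to 0.29, TNFAIP3 -0.11 to 0.27 and ADAR -0.89 to 1.32; in translation efficiency RELA -0.20 to 0.18, NFKBIA -0.52 to 0.70 and BIRC3 -0.12 to 1.5. So did, in S1 read starts, FOS -0.24 to 0.27, RBCK1 -0.88 to 0.12 and TNFRSF1A -0.55 to 0.12, and in V1 EIF2AK2 -0.03 to 0.18, FOS -0.35 to 0.33, LTBR -0.32 to 0.56, RBCK1 -0.62 to 0.22, SOD2 -0.31 to 0.03 and TNIP1 -0.40 to 0.08. The S1 change of NFKBIA ran from -1.58 to -0.94 and was not called when S1 KD replicate 1 or S1 KD replicate 2 was left out. The median difference in translation efficiency, 0.09, ran from -0.20 to 0.48 without each Ribo-seq replicate. Leave-outs for translation efficiency were added after the data were seen. The cause was not tested.

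Of 228 tests of single genes with 1 library left out, 188 were counted as keeping direction and call, 10 lost a call, 5 gained a call and 25 changed direction. The 188 include the RELA interaction, whose estimate of 0.00 has no direction and took either sign. The tally leaves out the read starts of NFKBIA, translation efficiency, and the Ribo-seq changes of CCL2, JUN, JUNB, TRAF6 and IRAK4. Ribo-seq depth, 1 or 2 reads per library for CXCL2 and at most 3 for ICAM1, limits what can be read there.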
